A study of Homo sapiens with 6 samples.

Results

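Contractile and actin-binding proteins were described here as a set of 10 genes, taken by symbol from a table of 28514 genes: ACTA2, TAGLN, TAGLN2, CNN2, CNN3, CALD1, TPM1, TPM2, MYL9 and MYH10. All 10 were found and all 10 passed the filter on low counts. Their messenger RNA was measured in 6 libraries of CI-huVEC, human endothelial cells of umbilical vein origin that have been immortalised. Wild-type lines were WT 1, WT 2 and WT 4 (3 libraries). The knockout lines, of genotype CCM3 -/- after CRISPR/Cas9 editing aimed at exon 3, were the clones K17, K18 and K19 (3 libraries). Where 3 values are given for a group, they follow these orders. CCM3 is the disease name of PDCD10, one of the genes whose loss causes cerebral cavernous malformations, clusters of dilated brain vessels. The passage was 31 for all 6 samples, and they share the clone label HKO, left undefined by the labels. Whether the wild-type lines are themselves clones is not stated. Loss of CCM3 and the isolation of single clones therefore cannot be told apart, and p-values measure the spread between these samples only. In such bulk libraries fewer cells expressing a gene and less RNA per cell cannot be told apart.

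Endothelial cells hold actin filaments in a cortical ring under their junctions and in stress fibres that pull on the matrix. Non-muscle myosin II slides these filaments past each other when its regulatory light chain is phosphorylated, and tropomyosins, caldesmon, calponins and transgelins bind along the filaments and set how stable they are and how readily myosin reaches them. Several of the 10 genes are also classic smooth muscle markers, and in other cell types the transcription factor SRF with its MRTF co-activators drives many of them through a DNA element called the CArG box.

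Total counts ran from 28280417 to 32919491 per library, so 3 counts correspond to 0.0911 to 0.106 CPM (counts scaled to a common library size). PDCD10 fell from 60.9 ± 0.603 to 37.2 ± 5.35 CPM (SD, n = 3 in each group), a log2 fold change of -0.71 ± 0.11 (SE) with an adjusted p of 0.00374 by the edgeR quasi-likelihood test; a gene-level count does not show the edit itself. Clone K17 stood apart from the other two. The chi-square per degree of freedom between counts was 68.7 and 69.7 for K17 against K18 and K19, 19.8 between K18 and K19, and 2.09 to 4.25 between wild-type libraries. Of 12 endothelial markers, where 18% of all tested genes were called higher, 9 rose (PECAM1, VWF, TEK, KDR, TIE1, CLDN5, ESAM, EGFL7 and ROBO4). CDH5, ERG and ENG, named for completeness, were not called; CDH5, which encodes VE-cadherin, averaged 774.2 CPM in wild type and 877 CPM in the clones. The summed level of the 12 was 3410 to 3620 CPM in wild type and 5160 to 6020 CPM in the clones.

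Of the 10 genes, 1 rose, 6 fell and 3 did not pass the test (edgeR quasi-likelihood F test, Benjamini-Hochberg over 14548 genes, called under 0.05). The background was broad: 38.7% of all tested genes were called, 18% higher and 20.8% lower in the clones. The median log2 fold change of the 10 genes was -0.65, beside 0.002 for all tested genes. Knockout and wild-type libraries did not overlap for 7 of the 10, again 1 higher and 6 lower. Such a gap was found for 55.5% of all tested genes, with 24.5% higher and 31.0% lower in the clones. With K17 left out, 3 of the 10 were called higher and 6 lower, where 32.2% and 30.3% of all tested genes were called.

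The promoter sequences of an actin that rose, a calponin that did not pass the test and a tropomyosin that fell are shown first, since the CArG box is the element through which SRF is known to act on this class of genes. Each is the 250 bases before a RefSeq transcription start (GRCh38.p14), 5′ to 3′ on the gene's strand. Capitals mark CArG boxes with at most 1 mismatch and the motif CATTCC, to which TEAD factors bind, on either strand (GGAATG on the other). The gene counts do not say which start was used.
ACTA2, chr10:88952774-88953023, minus strand: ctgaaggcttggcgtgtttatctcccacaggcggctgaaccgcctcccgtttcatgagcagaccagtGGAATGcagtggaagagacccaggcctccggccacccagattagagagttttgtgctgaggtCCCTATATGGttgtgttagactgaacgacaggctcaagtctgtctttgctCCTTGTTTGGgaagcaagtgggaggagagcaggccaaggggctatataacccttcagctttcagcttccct
CNN2, chr19:1026358-1026607, plus strand: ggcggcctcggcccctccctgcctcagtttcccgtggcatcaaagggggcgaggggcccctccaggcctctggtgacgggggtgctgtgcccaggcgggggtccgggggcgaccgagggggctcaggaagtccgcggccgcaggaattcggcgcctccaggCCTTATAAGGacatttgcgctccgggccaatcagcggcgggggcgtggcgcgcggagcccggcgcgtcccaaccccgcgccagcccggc
TPM1, chr15:63048239-63048488, plus strand: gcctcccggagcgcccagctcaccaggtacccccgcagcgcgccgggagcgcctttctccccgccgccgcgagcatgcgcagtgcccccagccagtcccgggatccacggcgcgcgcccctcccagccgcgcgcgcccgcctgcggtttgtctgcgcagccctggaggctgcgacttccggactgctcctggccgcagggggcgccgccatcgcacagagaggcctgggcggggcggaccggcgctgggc

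The ACTA2 window shown, 1 of 2 for this gene, held 2 near-CArG boxes whose first bases lie 121 and 71 bases before the start, and a GGAATG at 183; the other ACTA2 window, at chr10:88991338-88991587, held neither motif. CNN2 was the only matched gene with an exact CArG box, 89 bases before its start. The TPM1 window held neither motif, which says only that these letters are not in it. RefSeq windows were matched for 8 of the 10 genes, 16 windows in all; TAGLN and MYL9 had none. A CArG box with at most 1 mismatch was found in 4 of the 16 windows (of ACTA2, CNN2 and CALD1), beside 16.8% of 35116 promoter windows of the same length. An exact CArG box was in 1 of the 16, beside 1.16%. CATTCC was in 5 of the 16 (of ACTA2, CNN3, CALD1 and MYH10), beside 11.9%. The start positions of a match are a description of these letters, not evidence that a factor binds there.

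ACTA2, on chromosome 10, encodes smooth muscle α-actin, the actin isoform of contractile cells. Its wild-type levels were 3.84, 4.09 and 3.70 CPM and its knockout levels 8.58, 16.1 and 15.8 CPM. Every clone lay above every wild-type library, K17 least so. The gene rose 3.48-fold, a log2 fold change of 1.80 ± 0.26 (SE, adjusted p = 0.00305), and 2.05 ± 0.11 with K17 left out (adjusted p = 2.53e-06). The mean in the clones was 13.5 ± 4.26 CPM (SD, n = 3). Per length, ACTA2 averaged 5.996 FPKM in the clones and ACTB, the cytoplasmic β-actin, 697.3 FPKM. ACTA2 overlaps FAS, the death receptor gene, on the opposite strand of the annotation, and FAS rose too, with a log2 fold change of 1.36 ± 0.23 (SE, adjusted p = 0.00604). FAS had 506, 472 and 481 counts in wild type and 780, 1148 and 1465 counts in the clones. STAMBPL1 overlaps ACTA2 on the opposite strand as well and moved the other way, with 143, 137 and 119 counts in wild type and 80, 75 and 77 in the clones. The library kit keeps strand but the strand setting of the counting is not given, and the part of either gene in the ACTA2 counts was not tested.

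**Figure D1:**
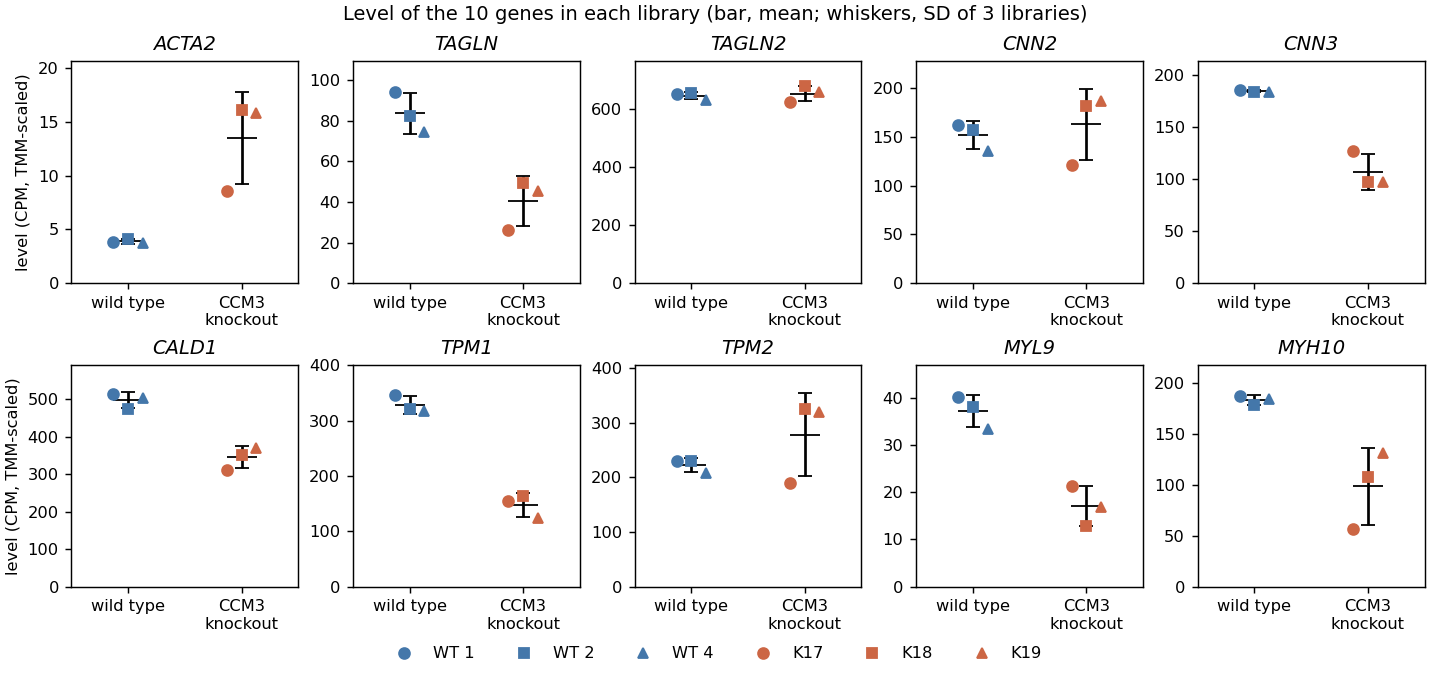
Level of each gene in each library, in CPM scaled with TMM factors, on linear axes that start at 0. Points are libraries, and horizontal bars and whiskers are the mean and SD of 3. ACTA2 is above wild type in all 3 clones; TAGLN, CNN3, CALD1, TPM1, MYL9 and MYH10 are below; K17 lies apart from K18 and K19 for TPM2 and CNN2.

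TPM1 and TPM2 encode tropomyosins, rod-shaped dimers that polymerise head to tail along the actin filament. TPM1, on chromosome 15, had wild-type levels of 346.8, 321.8 and 316.8 CPM and knockout levels of 155.4, 163.9 and 123.3 CPM. Each clone lay far below the lowest wild-type library. TPM1 fell by a log2 value of 1.16 ± 0.11 (SE, adjusted p = 0.000749), and by 1.19 without K17. TPM2, on chromosome 9, was at 230.3, 230.2 and 207.7 CPM in wild type and at 189.9, 325 and 318.8 CPM in the clones. K17 was below every wild-type library and K18 and K19 above all 3. The log2 fold change of TPM2 was 0.32 ± 0.20 (SE, adjusted p = 0.247), and with K17 left out it was 0.54 ± 0.05 and passed the test (adjusted p = 7.08e-05). The ratio of TPM1 to TPM2 was lower in every clone than in any wild-type library, its log2 value averaging 0.56 ± 0.07 in wild type and -0.88 ± 0.55 in the clones (SD, n = 3). That difference of -1.44 has an exact permutation p of 0.1, two-sided, the smallest that 3 against 3 libraries allow.

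CALD1 and MYH10 encode a restraint on myosin and a myosin itself. CALD1, on chromosome 7, encodes caldesmon, which binds actin and tropomyosin and restrains myosin. It was measured at 515.8, 474.1 and 502.9 CPM in wild type and at 312.9, 352.8 and 371.7 CPM in the clones. Caldesmon transcripts were below wild type in every clone, and the SD of its log2 CPM in the clones, 0.13, was smaller than for the other members except TAGLN2. The log2 fold change was -0.53 ± 0.08 (SE, adjusted p = 0.00294). MYH10, on chromosome 17, encodes the heavy chain of non-muscle myosin IIB, and it had 187, 177.8 and 184.6 CPM in wild type and 57.1, 108.1 and 130.8 CPM in the clones. K17 was lowest, and the groups did not overlap. MYH10 fell by 0.89 ± 0.28 (SE, adjusted p = 0.0474). The log2 fold change was -0.88, -0.92 and -0.89 without WT 1, WT 2 or WT 4 and -0.95 without K18, where it no longer passed the test (adjusted p of 0.123, 0.108, 0.123 and 0.0911). Without K17 its log2 fold change was -0.61 (adjusted p = 0.000323). MYH10 overlaps NDEL1 on the opposite strand, and NDEL1 fell too (log2 fold change -0.62 ± 0.07, SE; adjusted p = 0.00139).

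MYL9, on chromosome 20, encodes a regulatory light chain of myosin II, whose phosphorylation switches the motor on. Wild-type libraries held 40.03, 37.95 and 33.4 CPM of it and the clones 21.3, 12.8 and 16.9 CPM. All 3 clones lay below the wild-type libraries. MYL9 fell, its log2 fold change being -1.13 ± 0.19 (SE, adjusted p = 0.00546), or -1.31 without K17.

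TAGLN and TAGLN2 encode transgelins, small calponin-related proteins that cross-link actin. TAGLN, also called SM22α, is on chromosome 11. Its levels were 94.4, 82.6 and 74.3 CPM in wild type against 26.2, 49.2 and 45.6 CPM in the clones. K17 was again the lowest, and the groups did not overlap. TAGLN fell, with a log2 fold change of -1.06 ± 0.24 (SE, adjusted p = 0.0162), or -0.82 without K17; without WT 1 or WT 2 it was -0.96 and -1.07 and did not pass (adjusted p of 0.0632 and 0.0525). TAGLN overlaps PCSK7 on the opposite strand, whose counts were 2148, 2090 and 1580 in wild type and 2164, 2702 and 2702 in the clones. TAGLN2, the form of non-muscle cells, was measured at 653, 654.3 and 631.6 CPM in wild type and 624.2, 677.7 and 657.9 CPM in the clones. Its groups overlapped, and its log2 fold change was 0.02 ± 0.05 (SE, adjusted p = 0.819), with a sign that turned under other scalings. The log2 ratio of TAGLN to TAGLN2 was -2.95 ± 0.15 in wild type and -4.07 ± 0.44 in the clones (exact permutation p = 0.1, the smallest possible).

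CNN2 and CNN3 encode calponins, actin-binding proteins that slow myosin and stabilise filaments. CNN3, on chromosome 1, gave 186, 184.3 and 184 CPM in wild type against 127.4, 97.3 and 97.1 CPM in the clones. The wild-type libraries were nearly equal, and each clone lay well below them. CNN3 fell, at -0.78 ± 0.11 in log2 fold change (SE, adjusted p = 0.00308), or -0.92 without K17. CNN2, on chromosome 19, was at 162.9, 157.8 and 135.5 CPM in wild type and at 121, 181.7 and 186.8 CPM in the clones. K17 was below all wild-type libraries and the other clones above. CNN2 had a log2 fold change of 0.10 ± 0.18 (SE, adjusted p = 0.661); without K17 it was 0.28 ± 0.08 and passed the test (adjusted p = 0.0111). CNN2 has 11 annotated processed pseudogenes, and CNN3 and TAGLN2 have 1 each, none of them in the table, so their counts are uncertain to the extent that reads could be shared.

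**Figure D2:**
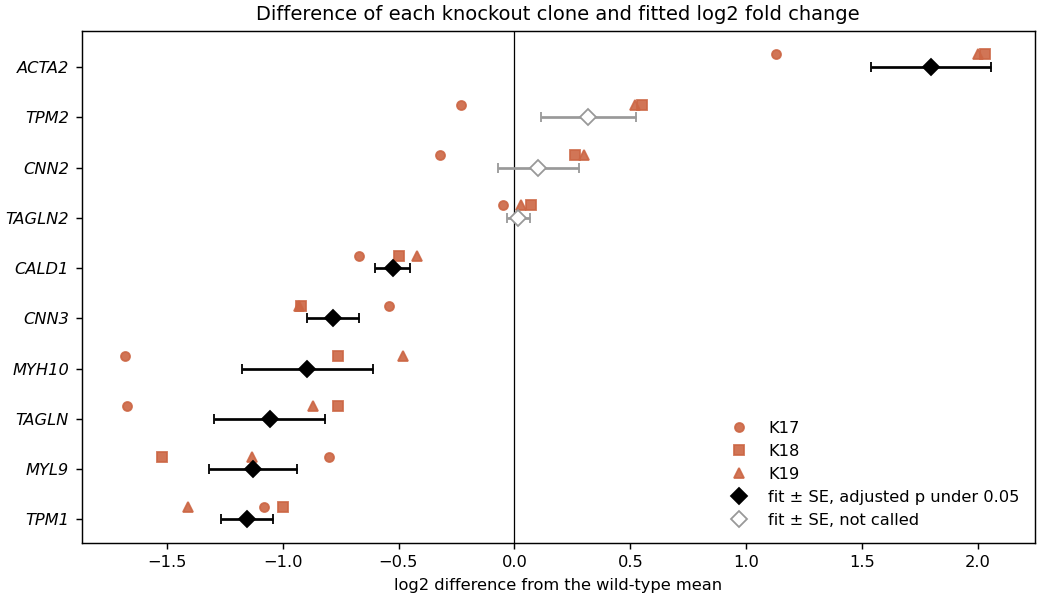
Log2 difference of each clone's CPM from the wild-type mean (circle K17, square K18, triangle K19), with the fitted log2 fold change and its SE as diamonds, filled where the adjusted p was under 0.05. K17 is on the other side of 0 from K18 and K19 for TPM2, CNN2 and TAGLN2, and lies lowest for MYH10 and TAGLN at -1.68 and -1.67.

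The 10 genes varied more among clones than among wild-type libraries. The SD of log2 CPM was larger in the clones for all 10, as it was for 88.5% of 12969 genes. The widest was MYH10, with an SD of 0.63 in the clones and 0.04 in wild type, followed by ACTA2 at 0.51 and 0.07. The narrowest was TAGLN2 at 0.06 and 0.03, beside medians of 0.17 and 0.062 over all genes. Likeness of pattern was measured as the root mean square difference of log2 CPM over the 6 libraries, each centred on the wild-type mean. Within the set CNN2 and TPM2 were the most alike pair, at 0.155, and TAGLN and MYH10 the next, at 0.184. Among 12968 genes the nearest to ACTA2 were HIST1H2BK, VWCE and EFHD2 (0.062, 0.066 and 0.076). The nearest to TPM1 were TCEAL3, ASNS and NOX4 (0.059, 0.07 and 0.08), and to MYL9 DCBLD2, SRPX2 and F2R (0.066, 0.095 and 0.097). CALD1 was closest to MYO10, an unconventional myosin (0.015), then ZNF175 and ETNK1 (0.027 and 0.029). For TAGLN these were NT5DC2, SHC3 and E2F7 (0.109, 0.114 and 0.116), for CNN3 TBC1D8B, FAT4 and GJC1 (0.027, 0.039 and 0.041), and for MYH10 TPD52, GARNL3 and C3orf18 (0.087, 0.118 and 0.12). TAGLN2 was nearest to CCT3, SLC35E2 and FBXO18 (0.015, 0.017 and 0.019), CNN2 to EVL, INPPL1 and MAU2 (0.047, 0.048 and 0.051), and TPM2 to TRAP1, PLEKHJ1 and INTS5 (0.023, 0.025 and 0.031).

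Levels of different genes are comparable only per length, so the order was taken from the authors' FPKM. In wild type TAGLN2 was highest at 326.3 ± 6.2 FPKM (SD, n = 3). TPM1 and TPM2 followed at 138.9 ± 5.44 and 135.8 ± 7.55 FPKM, a gap within their spread. CALD1 at 76.96 ± 2.71 and CNN3 at 72.38 ± 0.36 came next, then CNN2 at 48.8, TAGLN at 31.1, MYL9 at 25.1 and MYH10 at 19.1 FPKM. ACTA2 was last at 1.79 FPKM, at the 49.8th percentile of 20830 genes with a count. By the means of the clones the order changed at 2 places. TPM2 passed TPM1 (163.6 ± 42.6 against 60.5 ± 9.54 FPKM) and CNN2 passed CNN3 (50.6 ± 10.5 against 40.8 ± 7.45). Single clones differed from this order. In K17 CNN2 stayed below CNN3 (38.4 against 49.4 FPKM), CNN3 lay above CALD1 (47.9), and TAGLN below MYL9 (9.63 against 14.2). CNN2 lay above CALD1 in K18 (56.3 against 52.7 FPKM) and K19 (57.0 against 54.6). MYH10 lay above MYL9 in K18 (10.9 against 8.38 FPKM) and K19 (13.0 against 10.8). TPM1 lay below CALD1 and CNN2 in K19 (49.5 against 54.6 and 57.0). By the means CNN2 and CALD1 were within their spread of each other, as were CNN2 and CNN3, and TPM1 and CALD1. The same held for MYL9 (11.14 ± 2.93 FPKM) beside TAGLN (14.45 ± 4.25) and beside MYH10 (9.91 ± 3.64). ACTA2, at 5.996 ± 1.81 FPKM, stayed lowest.

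The family shares of summed FPKM show which isoforms made up each group. TPM1 was 23.7% ± 0.564 of tropomyosin FPKM in wild type (SD, n = 3) and 10.7% ± 1.56 in the clones. TPM4, the main non-muscle form here, was 39.2% ± 1.03 and 44.6% ± 4.81, and TPM2 23.2% and 29.1%. The tropomyosin total was 585.2 ± 9.51 FPKM in wild type and 562.5 ± 10.7 in the clones. MYH10 was 10.4% ± 0.662 of myosin II heavy chains in wild type and 4.65% ± 0.684 in the clones; MYH9, myosin IIA, held nearly all the rest. CNN2 was 41.8%, 41.2% and 37.6% of calponin FPKM in the wild-type libraries and 43.8%, 60.5% and 61.2% in the clones. TAGLN went from 8.69% ± 0.837 to 4.30% ± 1.14 of transgelins, and MYL9 from 2.88% ± 0.32 to 1.48% ± 0.301 of regulatory light chains. Among actins ACTA2 was 0.128% ± 0.00496 and 0.355% ± 0.0635. These shares were not tested. Taken from counts, the share of TPM1 in the clones minus that in wild type was -9.15 percentage points, beside -13 by FPKM. For TAGLN it was -5.74 beside -4.39, and for TPM2 2.5 beside 5.9. For CNN2 it was 14.8 beside 14.9, and for MYH10 -6 beside -5.75.

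**Figure D3:**
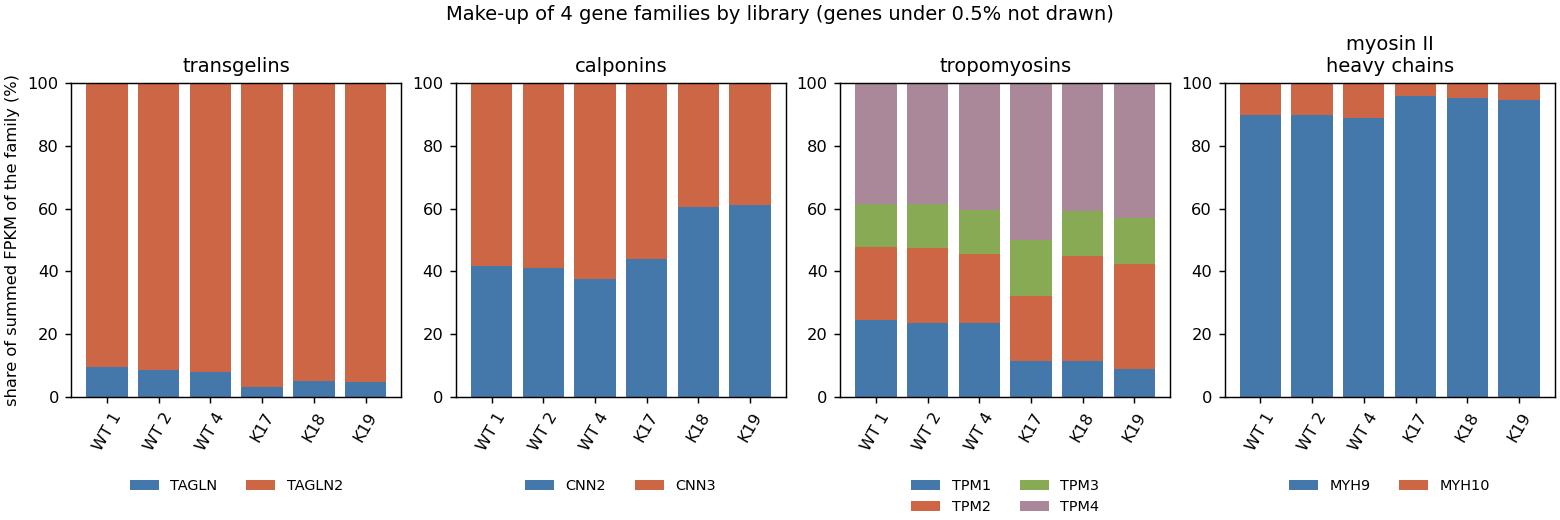
Share of summed FPKM (%) that each gene took in its family in each library, for transgelins, calponins, tropomyosins and myosin II heavy chains. TPM1 makes up 23.4% to 24.4% of tropomyosins in wild type and 8.94% to 11.6% in the clones, and CNN2 more than 60% of calponins in K18 and K19.

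Ratios to related genes were computed for 6 pairs, all with an exact permutation p of 0.1 (two-sided; adjusted 0.1), the smallest possible. Each was a log2 ratio in the clones minus that in wild type: 1.32 for ACTA2 to ACTB, -1.12 for TAGLN to TAGLN2, 0.88 for CNN2 to CNN3, -1.44 for TPM1 to TPM2, -1.27 for MYH10 to MYH9 and -1.06 for MYL9 to MYL12A. A ratio does not depend on how libraries were scaled. It can still carry a library's trend on GC content, which was not removed here. GC content was 59% for CNN2 and 45.2% for CNN3, and 50.2% for TPM1 and 59% for TPM2. Without K17 the ratios were 1.496, -0.86, 1.21, -1.74, -1.15 and -1.16, in that order. A p of 0.1 is reached whenever the groups do not overlap in a ratio. Every pair holds a gene whose own groups did not overlap in CPM, as was so for 55.5% of all tested genes. These p-values therefore add little to the results of the single genes.

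The genes around these 10 were read from lists of the contractile machinery. Leaving the 10 out, 19 of 53 tested genes rose, 7 fell and 27 were not called, with a median log2 fold change of 0.18; over all tested genes 18% were called higher and 20.8% lower. Without K17 the counts were 30 higher and 12 lower, beside 32.2% and 30.3% of all genes. Leaving out WT 1 gave 12 higher and 2 lower, beside 9.61% and 11.3% of all genes. Without WT 2 there were 12 and 2 (10.1% and 12.7% of all genes), and without WT 4 13 and 2 (9.26% and 11.1%). The counts without K18 were 20 and 4 (14.8% and 15.4%), and without K19 18 and 4 (14.4% and 15.9%). Among other actins ACTB rose by 0.43 ± 0.11 (SE, adjusted p = 0.0249), and ACTG1, the γ-actin, had 0.21 (adjusted p = 0.231). ACTA1, ACTC1 and ACTG2, the other muscle actins, were under the filter. Of myosin II subunits the essential light chain MYL6 rose by 0.32 (adjusted p = 0.00727), the regulatory light chain MYL12B fell by 0.20 (adjusted p = 0.0336), and MYH9 had 0.32 (adjusted p = 0.216). The essential light chain MYL6B had -0.07 (adjusted p = 0.604) and MYH11, the smooth muscle heavy chain, 0.84 at under 1.5 CPM in every library (adjusted p = 0.145). MYH14 and TAGLN3 were under the filter, as was CNN1. The tropomyosins TPM3 and TPM4 had log2 fold changes of 0.15 and 0.18 and were not called.

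Against the same 18% higher and 20.8% lower over all genes, 8 of 24 stress fibre and LIM genes rose, 5 fell and 11 were not called. SYNPO, PDLIM1 and CSRP1 rose by 1.13, 0.55 and 0.32, and FHL2, PDLIM5 and TES fell by 0.41, 0.49 and 0.40. PALLD, the actin cross-linker palladin, fell by 2.23 ± 0.55 (SE, adjusted p = 0.0221), and is named after its value was seen. In the same list FLNC rose by 1.66 ± 0.32 (SE, adjusted p = 0.00919) and ACTN4 by 1.07 ± 0.25 (adjusted p = 0.0166). Both are likewise named after their values were seen. Of 16 actin turnover genes 9 rose, 1 fell and 6 were not called, beside the same shares. WDR1, COTL1 and CAPG rose by 0.64, 0.83 and 0.91, and PFN2 fell by 0.37. GSN, named after its value was seen, rose by 1.64 ± 0.30 (SE, adjusted p = 0.00757). SRF had a log2 fold change of 0.19 (adjusted p = 0.111), MKL1 (MRTFA) 0.17 (0.448) and MKL2 (MRTFB) -0.24 (0.0843), while the SRF co-activator MYOCD was under the filter.

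**Figure D4:**
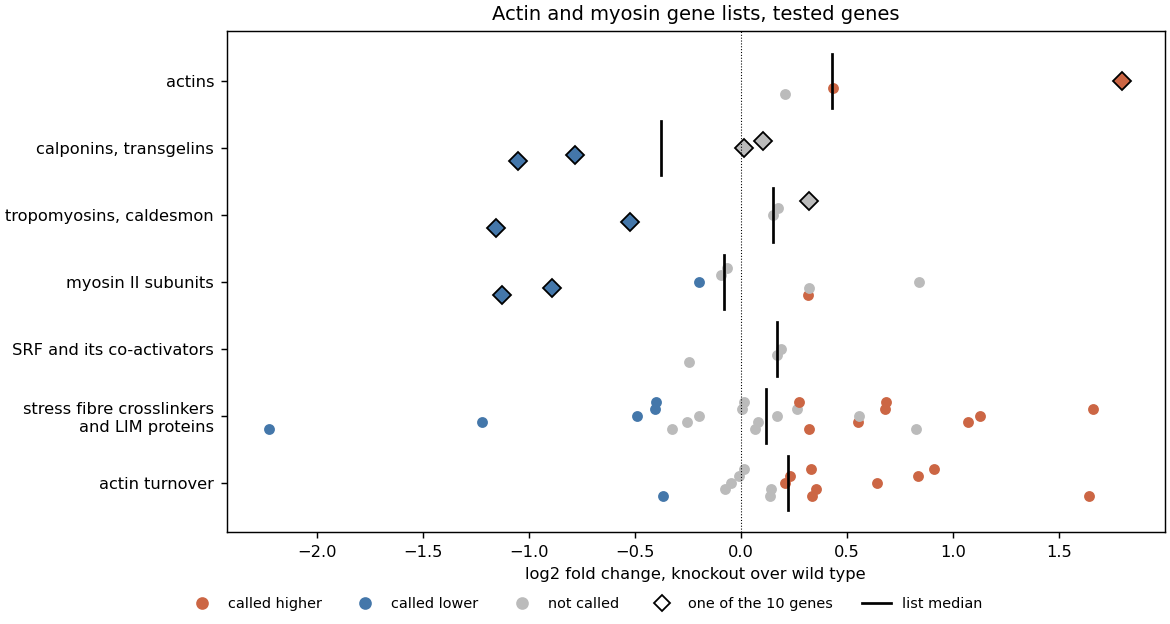
Log2 fold change (knockout over wild type) of each tested gene in the lists of the contractile machinery; colours give the call, diamonds the 10 genes and bars the list medians. The 10 genes lie mostly to the left, and the list medians run from -0.38 for calponins and transgelins to 0.43 for actins.

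Markers of other cell types were read beside these results. Of 13 smooth muscle and pericyte markers 4 were tested, 3 were not called and 1 fell: RGS5, a pericyte marker, from 300.4 to 10.4 CPM, a log2 fold change of -4.85 (adjusted p = 0.000331). The summed level of that list was 369 to 373 CPM in wild type and 74.7 to 131 CPM in the clones, RGS5 making up most of the wild-type sum. SMTN (smoothelin) averaged 69.1 and 95.6 CPM, a log2 fold change of 0.47 that was not called (adjusted p = 0.153). CNN1 had 3, 2 and 7 counts in wild type and 1, 0 and 0 in the clones. DES and MYOCD had at most 2 counts and ACTG2 at most 1. The pericyte markers PDGFRB, CSPG4, KCNJ8 and NDUFA4L2 were under the filter, with few counts already in wild type. PDGFRB had 3, 5 and 6 counts in wild type and 0, 0 and 2 in the clones. CSPG4 had 7, 8 and 6 against 3, 14 and 17. KCNJ8 had at most 1 count and NDUFA4L2 at most 4. Fibroblast markers had 1 of 2 tested genes called, PI16, which rose from 1.16 to 146.6 CPM, with DPT at 0 in all libraries. Their summed level was 4.35 to 4.51 CPM in wild type and 54.5 to 273 CPM in the clones, nearly all of the latter PI16. COL1A2 had 85, 75 and 80 counts in wild type and 7, 5 and 91 in the clones (not called). COL1A1, under the filter, had 5, 10 and 6 against 1, 7 and 101. THY1 had only 3, 6 and 4 counts in wild type and 0, 0 and 3 in the clones, and DCN 3, 1 and 3 against 0, 0 and 4. PDGFRA had 8, 10 and 7 against 9, 4 and 10, and LUM at most 2 counts. Among epithelial markers 2 of 3 tested rose, KRT8 and KRT18, and CDH1 was at 0. EPCAM had 20, 13 and 14 counts in wild type and 26, 8 and 40 in the clones and was not called (adjusted p = 0.275). KRT19, under the filter, had 10, 7 and 11 against 89, 9 and 0, and CLDN4 at most 1. The summed level of these epithelial markers was 242 to 261 CPM in wild type and 349 to 625 CPM in the clones. Leukocyte markers had 2 of 2 tested genes higher, CD68 and ITGAM, at 20.2 to 24.3 CPM and 37.6 to 42.5 CPM in sum, with PTPRC at 23 counts at most. CD68 made up nearly all of that sum, averaging 22.1 CPM in wild type and 37.8 CPM in the clones. ITGAM had only 1, 7 and 1 counts in wild type and 20, 19 and 19 in the clones. CD14, under the filter, had 3, 4 and 2 against 3, 23 and 32. The part of these shifts in the members' results was not tested.

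GC content was read beside the members, since some of their values moved when its trend was removed. The cause of these moves was not tested. After removal of each library's trend of log2 CPM on GC content, 1 of the 10 was called higher and 7 lower, where 21.2% and 21.6% of all tested genes were called. TAGLN2, CNN2 and TPM2 (57%, 59% and 59% GC, beside a median of 49.6% over tested genes) then had log2 fold changes of -0.19, -0.22 and -0.01, each with the sign turned, and TAGLN2 and CNN2 passed the test (adjusted p of 0.0491 and 0.0322). MYH10 no longer passed (-0.82, adjusted p = 0.0661). ACTA2, TAGLN, CNN3, CALD1, TPM1 and MYL9 stayed called in the same direction, at 1.77, -1.37, -0.67, -0.44, -1.14 and -1.45. TAGLN and MYL9, at 58.6% and 60.9% GC, had -1.06 and -1.13 before, so they moved down as TAGLN2, CNN2 and TPM2 did. CNN3, CALD1 and MYH10, at 45.2%, 46.7% and 47.6% GC, had -0.78, -0.53 and -0.89 before and moved up. ACTA2 and TPM1, at 51.9% and 50.2% GC, had 1.80 and -1.16 before.

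**Figure D5:**
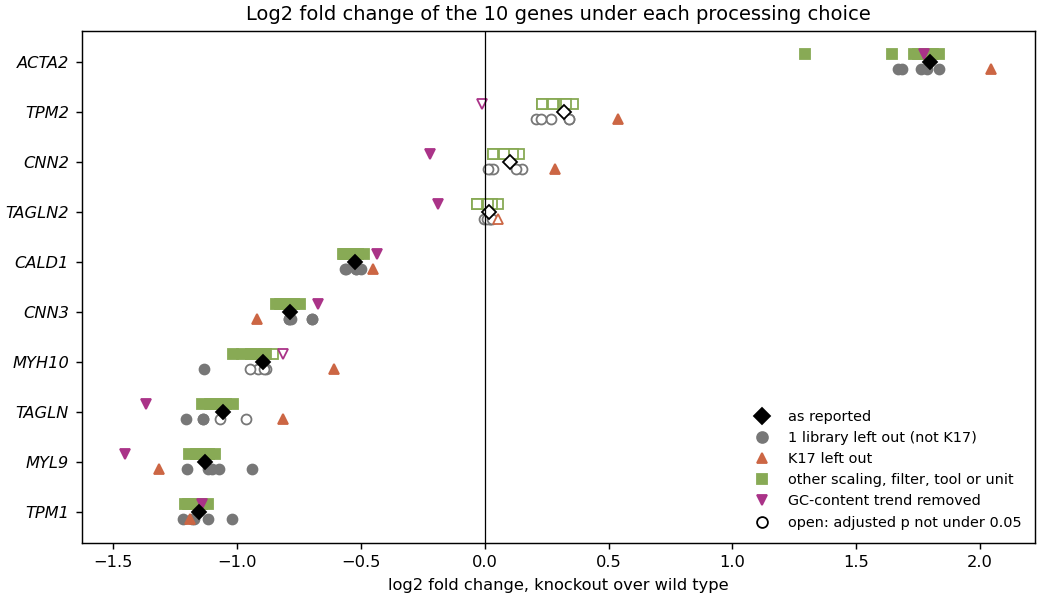
Log2 fold change of each gene under each processing choice; filled symbols have an adjusted p under 0.05. The lowest point of ACTA2 at 1.29 is the fit on log2 of FPKM plus 1, a scale that understates changes of low genes, and the largest moves of TPM2, CNN2 and TAGLN2 are with the GC-content trend removed or K17 left out.

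In the authors' deposited table the log2 fold changes were 1.68 for ACTA2, -1.12 for TPM1, -1.07 for MYL9, -1.0 for TAGLN, -0.83 for MYH10, -0.76 for CNN3 and -0.51 for CALD1, with adjusted p between 8.16e-16 and 0.00367. In the authors' deposited table TAGLN2, CNN2 and TPM2 had 0.02, 0.10 and 0.31, with adjusted p of 0.872, 0.785 and 0.248.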

How the data were processed

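Messenger RNA libraries of 6 samples were made with a strand-keeping kit, per the labels' protocols. The submitters' processing notes name STAR, HTSeq, hg19 and GRCh37 and no versions. Annotation and strand setting: not given in the sources used here. The deposited values are whole-number counts per gene and library, not normalized, and FPKM, per the file headers. A further deposited table holds the authors' own comparison: a mean signal (baseMean), log2 fold changes with SE, and p-values, by a tool that no source used here names.

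Counts were fitted with edgeR 4.0.16 (TMM factors, filterByExpr with a minimum count of 10, robust glmQLFit, two-sided F test) in R 4.3.3, leaving 14548 genes, and p-values were Benjamini-Hochberg adjusted with calls under 0.05. SE is the absolute log2 fold change divided by the square root of F. CPM are TMM-scaled, and SDs are over 3 libraries. Paralogue ratios used an exact permutation test. The fits were tested on simulated data, drawn with the same dispersion per gene in both groups. That test does not cover the wider spread among the clones. Symbols turned into dates stood in 13 rows, with 0.175% to 0.196% of each library's counts, and were kept in the totals.

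The members and lists were chosen with earlier results of these data known. Named genes are the 10, all genes of the actin, calponin, tropomyosin, myosin II and SRF lists, up to 3 called genes per direction by adjusted p in the other contractile lists, called genes and absent markers of the cell type lists, PDCD10, and the 3 genes nearest each member by pattern at a mean of at least 1 CPM; genes that overlap a member, partners in ratios, CDH5, ERG, ENG, SMTN, COL1A2 and PALLD were named outside this rule, after their values were seen, and 1 list is not reported here. GC content is the median over GENCODE v29 transcripts, for 91.2% of tested genes. Alternatives were DESeq2 1.42.0 and its size factors, upper quartile and library totals, no filter or 1 CPM in 3 libraries, no robust step, limma 3.58.1 (voom, and log2 of FPKM plus 1 or 0.1), a lowess GC trend (span 0.3) removed, and each library left out. Replicates 1 to 3 are WT 1, WT 2 and WT 4, and K17, K18 and K19, numbered in listing order.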

Additional observations from a re-analysis of the deposited data

How the results depend on the processing

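Over 17 alternatives ACTA2, CNN3, CALD1, TPM1 and MYL9 were called in all, in 1 direction, TAGLN in 15 and MYH10 in 10. Of 170 values of the 10 genes under the alternatives, 151 stayed on their side of the threshold with the same sign, 9 lost the call, 4 gained it and 8 changed sign, 2 of the last gaining a call as well (TAGLN2 and CNN2, GC-content trend removed). The sign of TAGLN2 turned under upper quartile factors (-0.002), library totals (-0.027), log2 of FPKM plus 1 (-0.031) or 0.1 (-0.032), the GC-content trend removed (-0.188) and without WT 4 (-0.004; without 1 library -0.004 to 0.054), and with the GC trend removed CNN2 (-0.221) and TPM2 (-0.012) turned as well. Without 1 library the number of the 10 called higher was 1 to 3 (3 without K17). The number called lower was 4 to 6, with 4 without WT 1 or WT 2 and 5 without WT 4 or K18. Over all tested genes 1370 to 4776 were called higher (9.26% to 32.2%) and 1650 to 4491 lower (11.1% to 30.3%). In the pooled lists, an alternative added after seeing the data, 12 to 30 were higher and 2 to 12 lower. MYH10 lost its call also with no filter (adjusted p = 0.0646) or 1 CPM in 3 libraries (0.0526). The cause of these moves was not tested. No paired analysis was possible because the labels give the groups no shared replicate numbers. With 3 libraries a group the exact tests cannot go below 0.1.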
